A study of Saccharomyces cerevisiae with 8 samples.

Results

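Saccharomyces cerevisiae cells expressing AhPDF1.1b, a defensin of the metal-tolerant plant Arabidopsis halleri, were compared with and without a zinc overload of 20 mmol/L ZnSO4. The 2 arrays of AhPDF1.1b yeast grown with added zinc (zinc arrays, WTD20) and the 2 arrays of AhPDF1.1b yeast grown on the same medium without it (control arrays, WTD0) were chosen by their sample titles, which makes 4 of the 8 arrays of the series. All genes with a symbol in the array annotation were read, 4060 of the 6226 genes measured. All cells of these 4 arrays were BY4741 (MATa, his3Δ1, leu2Δ0, met15Δ0, ura3Δ0) with the empty HIS3 vector pFL38H, and they expressed AhPDF1.1b under the constitutive triose phosphate isomerase promoter from the URA3 vector pYX212. The other 4 arrays held BY4741 with pFL38H and without AhPDF1.1b, 2 with the added zinc and 2 without. The labels name no vector in place of pYX212 in them, and they are called yeast without AhPDF1.1b. Colonies grew on solid, glucose-containing medium and were collected at 1 colony diameter, so that zinc and time in culture cannot be told apart. Each array carried the Cy3-labelled RNA of 1 biological replicate. AhPDF1.1b itself was not read on the arrays. TPI1, the gene whose promoter drove it, had log2 signals of 14.24 and 14.32 on the zinc arrays and 14.83 and 14.89 on the control arrays, and whether the transgene moved with it was not tested.

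Yeast takes up zinc through the plasma membrane transporters Zrt1 and Zrt2, whose genes the zinc-sensing activator Zap1 switches on when zinc is scarce. Excess zinc is carried into the vacuole by Zrc1 and Cot1, driven by the proton gradient of the vacuolar ATPase, and zinc overload is known to disturb iron uptake, which Aft1 controls. AhPDF1.1b belongs to the plant defensins, small secreted peptides that enter the secretory pathway through a signal peptide, and it is known for the zinc tolerance that it gives to yeast.

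The signals are on a log2 scale, so that a difference of 1 is a doubling. Replicate arrays correlated at r = 0.9972 (zinc) and 0.9963 (control) over 6226 genes, with median absolute differences between them of 0.0821 and 0.0959. LEU2 and MET17 (MET15), which the strain lacks, lay between 5.54 and 5.79 on all 4 arrays and are taken as the level of a missing transcript. Whether other probes read a missing transcript at this level was not tested. Of the 282 genes whose mean was no higher than that, 3 passed the test for zinc. The MATa label was set against the mating type genes. Of the 4 alpha-cell genes MF(ALPHA)2 had 5.66 and 5.68 on the zinc arrays and 5.75 and 5.73 on the control arrays, the level of a missing transcript. The other 3 lay above that level, MF(ALPHA)1 with 6.28 and 6.32 on the zinc arrays and 7.66 and 7.61 on the control arrays, STE3 with 7.19 and 7.19 on the zinc arrays and 6.78 and 6.80 on the control arrays, and SAG1 with 8.12 and 7.90 on the zinc arrays and 8.08 and 8.06 on the control arrays. The a-cell genes described below also lay above it, so that by this level 1 alpha-cell gene alone read as absent. The labels give 2 array numbers, read here as slides. Slide 1 held both zinc arrays and control replicate 2, and slide 2 held control replicate 1. The plasmid marker URA3 had 14.54 and 14.41 on the zinc arrays and 14.16 and 14.49 on the control arrays, which overlap (log2 change 0.15 ± 0.10 (SE), adjusted p = 0.27, and 0.024 without control replicate 2). HIS3, the marker of pFL38H, had 12.77 and 12.76 on the zinc arrays and 12.57 and 12.33 on the control arrays and rose by 0.31 ± 0.086 (adjusted p = 0.012), a call lost without zinc replicate 1 (adjusted p = 0.052) or control replicate 2 (adjusted p = 0.084).

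The zinc overload moved many transcripts by a little and few of them strongly. Of the 4060 named genes, 880 rose and 1107 fell (limma, 8 arrays fitted together, 2 per condition, Benjamini-Hochberg adjusted p under 0.05), and 84 rose and 61 fell by at least 1 on the log2 scale. Over all 6226 genes 21.8% rose and 24% fell, 2.17% rose and 1.27% fell by at least 1, and the median log2 change was -0.014. The 2 zinc arrays and the 2 control arrays did not overlap for 70.9% of all genes, and for every one of the 1987 named genes that passed. RNA came from whole colonies, so that fewer cells that express a gene and less of its RNA per cell cannot be told apart. The plot of the largest changes shows how far the arrays of the 2 conditions stood apart. The 12 largest increases took in the cell wall genes PST1 and YPS3, the phosphate transporter gene PHO84, the iron genes FIT3, TIS11 and HMX1, the riboflavin transporter gene MCH5, the meiotic activator gene IME1, the arginase gene CAR1, the chaperone gene BTN2 and also PRM10 (1.98) and SET4 (1.80). The 12 largest decreases took in the thiamine genes THI5, THI12, THI4, THI11 and THI13, the zinc genes ZRT1 and ZPS1, the mating genes MFA1, MFA2 and AGA2, the lysine gene LYS9 and the cell wall gene UTR2.

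**Figure D1:**
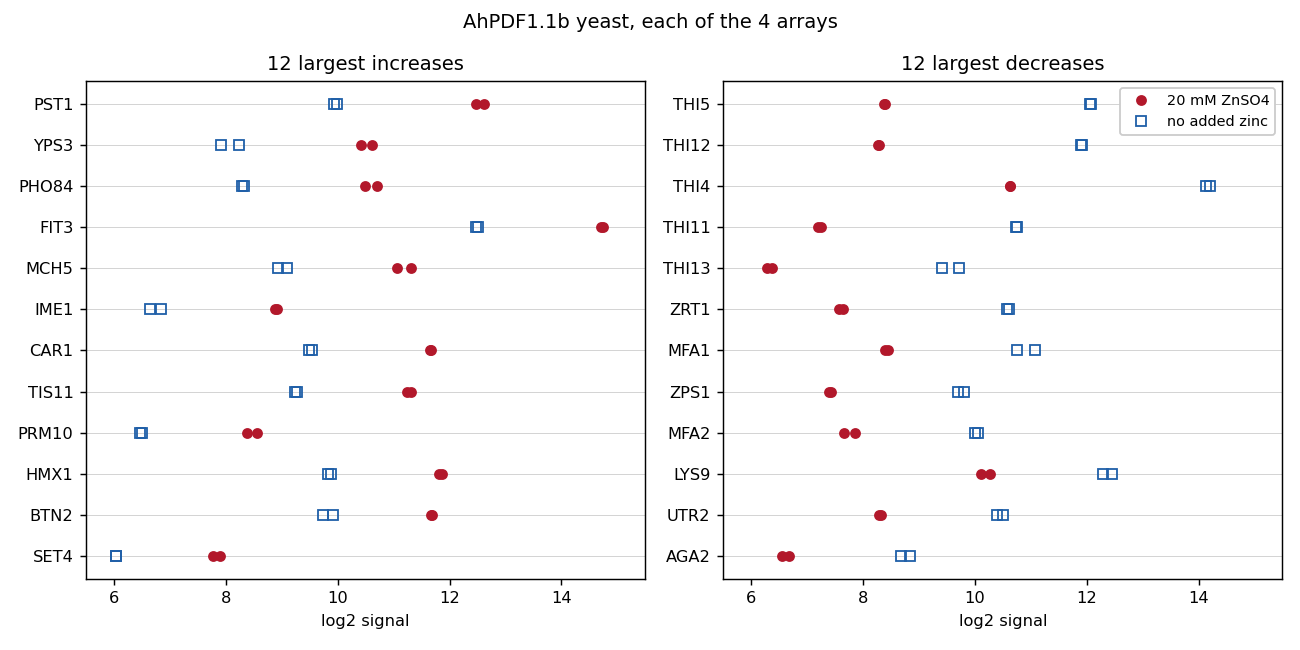
Log2 signals (horizontal axes) of the 12 named genes with the largest increases and the 12 with the largest decreases under zinc in AhPDF1.1b yeast. Filled circles are the 2 zinc arrays and open squares the 2 control arrays. The 24 genes were picked among called genes whose circles and squares do not overlap, so that their separation follows from the choice.

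Gene lists are given below by the number of members that rose or fell and by their median log2 change. The plot of the gene lists sets them beside the shares over all genes, and no list was tested as a set.

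**Figure D2:**
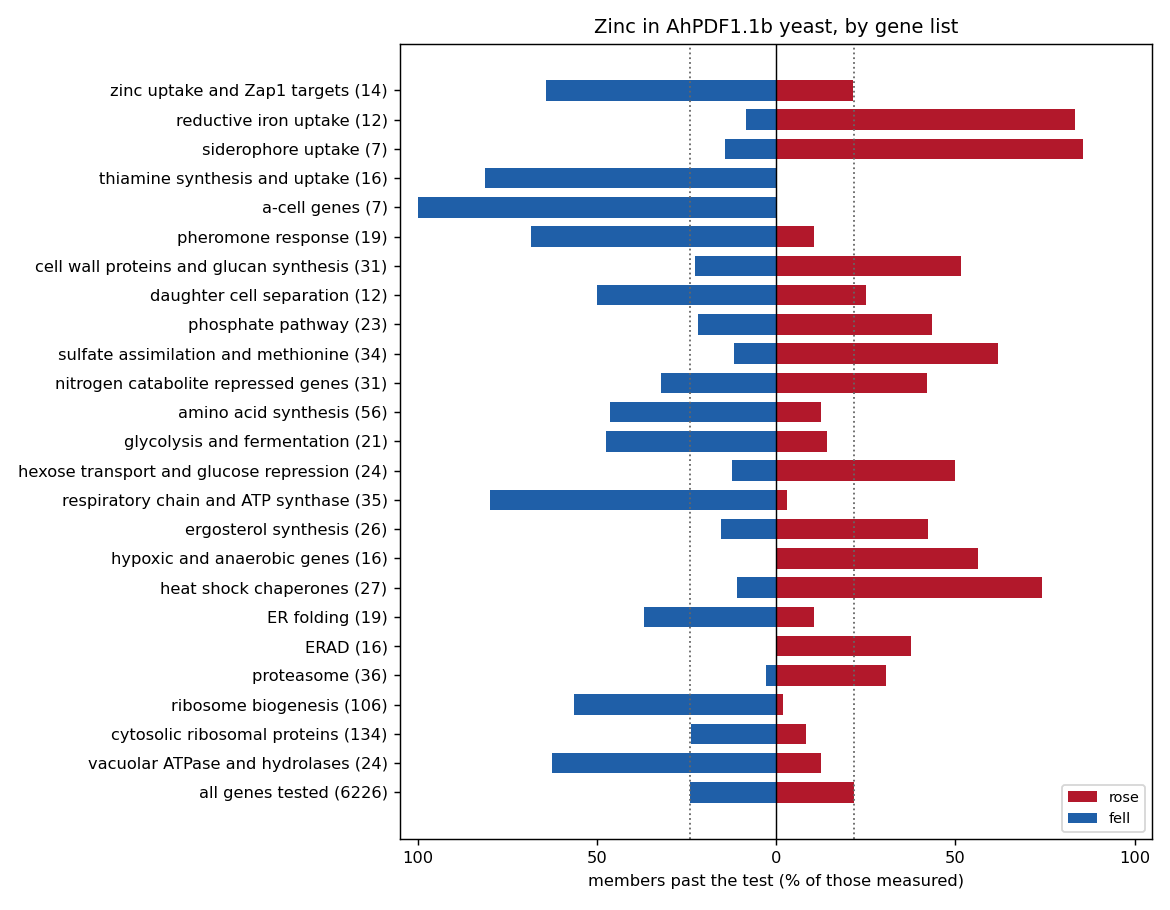
Share of the measured members of each gene list (number in brackets) that rose (right, red) or fell (left, blue) under zinc in AhPDF1.1b yeast, in percent. Dotted lines mark the shares over all 6226 genes, 21.8% for genes that rose and 24% for genes that fell.

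Most genes of zinc acquisition fell. ZRT1, the high-affinity zinc transporter gene, had 7.64 and 7.58 on the zinc arrays and 10.57 and 10.62 on the control arrays, a 7.91-fold decrease (log2 change -2.98 ± 0.064, adjusted p = 3.0e-10). The replicates of each condition lay close together and the 2 conditions far apart. ZRT2, which encodes the low-affinity transporter, had 8.60 and 8.53 on the zinc arrays and 9.78 and 9.87 on the control arrays and fell by 1.26 ± 0.070 (adjusted p = 2.9e-07). ZPS1, for a cell wall protein of zinc-starved cells, had 7.39 and 7.43 on the zinc arrays and 9.71 and 9.81 on the control arrays and fell by 2.34 ± 0.068 (adjusted p = 4.0e-09). ZAP1, which Zap1 itself activates, fell by 0.46 ± 0.082 (adjusted p = 9.8e-04), with signals of 6.99 and 6.87 on the zinc arrays and 7.47 and 7.32 on the control arrays. Of the 14 measured Zap1 targets and zinc uptake genes 3 rose and 9 fell, with a median log2 change of -0.36. The members that rose were FET4 (0.27), for a low-affinity transporter of iron and zinc, ZRG8 (0.32) and PST1, which also stands among the cell wall genes below. ADH4 (alcohol dehydrogenase), TSA1 (peroxiredoxin) and DPP1 (lipid phosphatase) fell by 0.46, 0.45 and 0.33, and the other 2 did not pass. The calls of FET4 and ZRG8 were lost without zinc replicate 1 (adjusted p = 0.098 and 0.14), and that of ZRG8 also without control replicate 2 (adjusted p = 0.092), so that without zinc replicate 1 PST1 alone rose.

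The genes of zinc storage moved little and not in 1 direction. COT1, for a vacuolar zinc transporter, had 12.21 and 12.05 on the zinc arrays and 11.58 and 11.25 on the control arrays and rose by 0.72 ± 0.10 (adjusted p = 2.8e-04). ZRC1, for the main vacuolar zinc transporter, had 9.40 and 9.46 on the zinc arrays and 9.96 and 9.67 on the control arrays and fell by 0.38 ± 0.091 (adjusted p = 0.0060). Control replicate 1, on slide 2, was the higher of the 2, and within slide 1 the change of ZRC1 was -0.24. ZRT3, for the transporter that releases zinc from the vacuole, had 9.70 and 9.69 on the zinc arrays and 10.22 and 9.81 on the control arrays and fell by 0.32 ± 0.11 (adjusted p = 0.040). This call was lost with slide as a block (adjusted p = 0.16), and when any of 5 single arrays was left out (adjusted p = 0.051 to 0.30), and the change within slide 1 was -0.11. The genes of the ER zinc transporters MSC2 and ZRG17 did not pass, with log2 changes of 0.14 and -0.17 (adjusted p = 0.22 and 0.17), except ZRG17 without control replicate 2 (adjusted p = 0.014). Of 24 measured genes of the vacuolar ATPase and vacuolar hydrolases 3 rose and 15 fell (median -0.31), among them the ATPase genes VMA5, VMA3 and VMA2 with log2 changes of -0.70, -0.59 and -0.67, and PHO8, for the vacuolar alkaline phosphatase, rose by 0.37.

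Most genes of iron uptake rose. FIT3, for a cell wall mannoprotein that retains siderophore iron, had 14.74 and 14.71 on the zinc arrays and 12.51 and 12.48 on the control arrays, a 4.7-fold increase (log2 change 2.23 ± 0.069, adjusted p = 5.8e-09). FIT2, of the same family, had 12.57 and 12.53 on the zinc arrays and 10.85 and 10.82 on the control arrays and rose by 1.72 ± 0.082 (adjusted p = 1.1e-07). FIT1 went the other way, with 6.86 and 6.87 on the zinc arrays and 7.37 and 7.37 on the control arrays, and fell by 0.51 ± 0.067 (adjusted p = 1.6e-04). All 4 siderophore transporter genes rose, ENB1 by 1.69, SIT1 by 1.69, ARN2 by 1.07 and ARN1 by 1.05. The siderophore list thus had 6 of 7 members rise and 1 fall, with a median of 1.69.

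Of the 12 measured genes of reductive iron uptake 10 rose and 1 fell, with a median of 0.53. FET3, the multicopper ferroxidase gene, had 12.13 and 11.96 on the zinc arrays and 11.14 and 10.78 on the control arrays and rose by 1.09 ± 0.11 (adjusted p = 3.2e-05). Its partner in the uptake complex, the permease gene FTR1, had 9.95 and 9.91 on the zinc arrays and 10.05 and 10.21 on the control arrays and was the member that fell (-0.20 ± 0.072, adjusted p = 0.045), a call lost with slide as a block (adjusted p = 0.057) and when any of 7 single arrays was left out (adjusted p = 0.060 to 0.23). The ferric reductase genes FRE3, FRE5, FRE2, FRE6 and FRE1 rose by 1.02, 0.88, 0.79, 0.70 and 0.39, and FRE4 did not pass (0.19, adjusted p = 0.14, and 0.030 without zinc replicate 2). CCC2 and ATX1, which deliver copper to Fet3, rose by 0.56 and 0.51, and SMF3 and FET5, for an iron transporter and a ferroxidase of the vacuole, rose by 0.51 and 0.30, the second by 0.45 within slide 1. The call of FET5 was lost without zinc replicate 1 (adjusted p = 0.22) or control replicate 2 (adjusted p = 0.26).

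Of 10 other Aft1 targets and iron regulators 7 rose and 2 fell (median 0.37). AFT1, the activator of the regulon, had 9.08 and 9.0 on the zinc arrays and 8.21 and 8.28 on the control arrays and rose by 0.80 ± 0.091 (adjusted p = 5.5e-05). TIS11 (CTH2), whose protein destabilises messages of iron-using proteins, had 11.25 and 11.30 on the zinc arrays and 9.28 and 9.24 on the control arrays and rose by 2.02 ± 0.073 (adjusted p = 1.6e-08). HMX1, the heme oxygenase gene, had 11.81 and 11.87 on the zinc arrays and 9.89 and 9.83 on the control arrays and rose by 1.98 ± 0.069 (adjusted p = 1.3e-08). The zinc and control arrays of these 3 genes did not overlap. This holds for every named gene that passed and for 70.9% of all genes. The mitochondrial iron carrier genes MRS4 and MRS3 rose by 0.68 and 0.35, and CTH1 and AFT2, the paralogs of TIS11 and AFT1, by 0.39 and 0.29. The call of AFT2 was lost without control replicate 2 or either zinc array (adjusted p = 0.060 to 0.19) and on the 4 arrays alone (0.051), and that of MRS3 without zinc replicate 2 or control replicate 1 (0.066 and 0.065). CCC1, for the transporter that stores iron in the vacuole, fell by 0.45, BIO5 is given with the vitamin genes below, and VHT1, for the biotin transporter, did not pass (-0.13, adjusted p = 0.26). Iron is used mainly in the mitochondria, in heme and iron-sulfur clusters. Of the 35 respiratory chain and ATP synthase genes 1 rose and 28 fell (median -0.45). CYC1 (cytochrome c), QCR7 and COX8 fell by 1.03, 0.93 and 0.84, and NDE1, for an external NADH dehydrogenase, was the gene that rose (0.96). Of the 23 genes of the TCA cycle and pyruvate dehydrogenase 1 rose (none without zinc replicate 1 or control replicate 1) and 12 fell (median -0.31). ACO1 (aconitase) and SDH2 (succinate dehydrogenase), both for iron-sulfur enzymes, fell by 1.13 and 0.83, and CIT1 (citrate synthase) was the gene that rose (0.27, and adjusted p = 0.062 with slide as a block). In heme synthesis HEM1, for the first enzyme, fell by 1.04. Of the 8 genes of this list 2 fell and none rose (median -0.14), so that the share that fell was close to the 24% of all genes. Iron-sulfur cluster assembly had no single direction, with 4 of 19 genes up and 5 down (median -0.11), of which 2 fell without zinc replicate 1 and 3 without control replicate 1. Its scaffold gene ISU2 had 10.54 and 10.43 on the zinc arrays and 9.12 and 9.14 on the control arrays and rose by 1.36 ± 0.091 (adjusted p = 1.2e-06), and MGE1, for a mitochondrial co-chaperone, fell by 0.49.

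Thiamine genes held the 5 lowest log2 changes of all named genes. THI5, of the family that makes the pyrimidine ring of thiamine, had 8.39 and 8.38 on the zinc arrays and 12.07 and 12.06 on the control arrays, a 12.9-fold decrease (log2 change -3.69 ± 0.062, adjusted p = 1.2e-10). The near-identical THI12, THI11 and THI13 had log2 changes of -3.63, -3.52 and -3.25, and the probes of these 4 genes may read the same transcripts. THI4, which makes the thiazole ring and takes its sulfur from its own cysteine, had 10.64 and 10.63 on the zinc arrays and 14.13 and 14.20 on the control arrays, an 11.6-fold decrease (log2 change -3.53 ± 0.064, adjusted p = 1.3e-10). On both branches of the pathway the zinc arrays lay close together and more than 3 log2 units below the control arrays.

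The later steps fell less. THI20, THI22 and THI21, of the family of hydroxymethylpyrimidine kinases, fell by 0.89, 0.62 and 0.45, and THI80, for thiamine pyrophosphokinase, fell by 0.47. THI6, which joins the 2 rings, had 9.93 and 9.93 on the zinc arrays and 10.19 and 10.01 on the control arrays and did not pass (-0.17 ± 0.078, adjusted p = 0.10, and 0.028 without control replicate 2). On the uptake side, PHO3, the acid phosphatase gene that frees thiamine from its phosphates, had 6.71 and 6.71 on the zinc arrays and 8.68 and 8.53 on the control arrays and fell by 1.90 ± 0.088 (adjusted p = 9.6e-08). THI7, the thiamine transporter gene, fell by 1.05, and PET18 fell by 1.42. Among the regulators, THI2 fell by 0.45, and THI3 and PDC2 did not pass (-0.23 and -0.23, adjusted p = 0.10 and 0.060), except THI3 without zinc replicate 1 (adjusted p = 0.045) and PDC2 without control replicate 2 (adjusted p = 0.0049). The list had 13 of 16 members fall and none rise, with a median of -0.97.

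**Figure D3:**
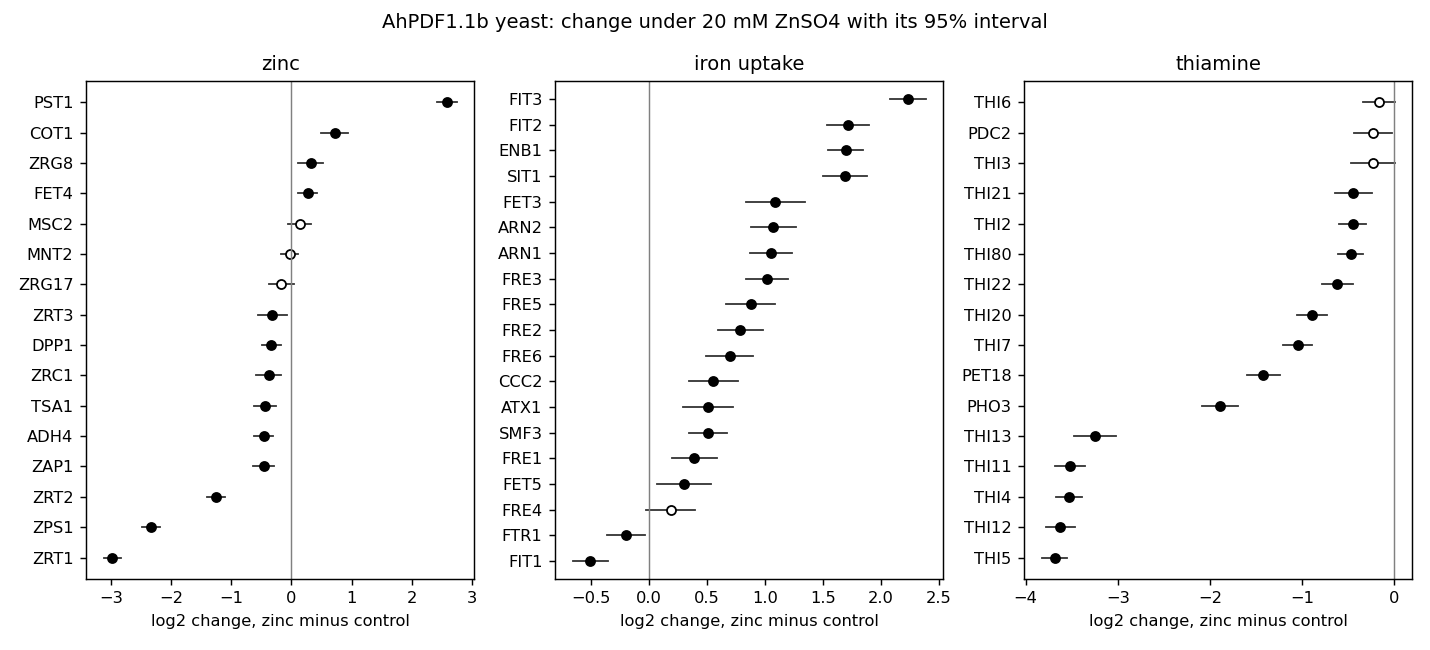
Log2 change of each gene of zinc transport and Zap1 targets, of iron uptake and of thiamine metabolism in AhPDF1.1b yeast, zinc minus control (horizontal axes, zinc on the right of 0 where higher), with the 95% interval of the limma fit. Filled points passed the test (adjusted p under 0.05), open points did not, and the 5 lowest thiamine genes lie between -3.25 and -3.69.

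Genes of other vitamins moved too. BIO5, BIO3 and BIO2, of biotin uptake and synthesis, fell by 2.10, 1.26 and 1.22, and in this list of 15 riboflavin and biotin genes 1 rose (2 without zinc replicate 2 or control replicate 2) and 7 fell. The gene that rose was MCH5, for the plasma membrane riboflavin transporter, with 11.31 and 11.06 on the zinc arrays and 8.94 and 9.09 on the control arrays (log2 change 2.17 ± 0.093, adjusted p = 5.3e-08).

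Many genes of the cell wall rose. PST1, for a secreted wall protein induced by wall damage, had 12.61 and 12.47 on the zinc arrays and 9.93 and 9.98 on the control arrays, a 6.02-fold increase (log2 change 2.59 ± 0.072, adjusted p = 2.9e-09). YPS3, for a yapsin protease of the wall, had 10.61 and 10.42 on the zinc arrays and 7.90 and 8.23 on the control arrays and rose by 2.45 ± 0.11 (adjusted p = 6.1e-08). SLT2, the MAP kinase of the cell wall integrity pathway, had 12.34 and 12.34 on the zinc arrays and 10.82 and 10.80 on the control arrays and rose by 1.53 ± 0.062 (adjusted p = 3.7e-08). UTR2, for a chitin transglycosylase, had 8.32 and 8.29 on the zinc arrays and 10.51 and 10.39 on the control arrays and fell by 2.15 ± 0.068 (adjusted p = 6.3e-09). The list had 16 of 31 members rise and 7 fall, with a median of 0.34. Genes of daughter cell separation were split, with 3 of 12 that rose and 6 that fell. DSE2, CTS1 (chitinase) and SUN4 fell by 2.03, 1.43 and 1.00, whereas DSE4, for a glucanase of the same step, rose by 1.15. FLO11, for the flocculin of cell adhesion, had 6.22 and 6.19 on the zinc arrays and 7.75 and 7.60 on the control arrays and fell by 1.47 ± 0.084 (adjusted p = 3.5e-07). It was the 1 member of the 6 flocculin genes that fell. FLO1 rose by 0.31 (adjusted p = 0.0037), and the other 4 did not pass.

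All 7 a-cell genes fell, with a median of -1.76 and changes between -2.50 and -1.20. MFA1 and MFA2 encode the a-factor pheromone. MFA1 had 8.39 and 8.44 on the zinc arrays and 11.07 and 10.76 on the control arrays and fell by 2.50 ± 0.096 (adjusted p = 2.6e-08). MFA2 had 7.65 and 7.86 on the zinc arrays and 10.05 and 9.995 on the control arrays and fell by 2.26 ± 0.13 (adjusted p = 3.3e-07). The zinc arrays of both genes were far below the control arrays. STE2, the receptor gene for alpha-factor, had 8.74 and 8.79 on the zinc arrays and 10.57 and 10.49 on the control arrays and fell by 1.76 ± 0.10. The a-agglutinin gene AGA2 fell by 2.14, the alpha-factor protease gene BAR1 by 1.73, the exporter gene STE6 by 1.40 and ASG7 by 1.20. Of the 4 alpha-cell genes STE3 rose by 0.40 and MF(ALPHA)1 fell by 1.34, and the other 2 did not pass. Of 19 pheromone response genes 2 rose and 13 fell (median -0.32), among them AGA1, FAR1 and the transcription factor gene STE12 by 1.36, 1.02 and 0.77. PRM4 rose by 1.04.

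IME1, the activator of meiosis that haploid cells normally keep low, had 8.91 and 8.89 on the zinc arrays and 6.64 and 6.84 on the control arrays and rose by 2.16 ± 0.11 (adjusted p = 2.2e-07). IME2, its target kinase gene, rose by 0.55 ± 0.082 (adjusted p = 3.5e-04). Of the 19 genes of meiosis and sporulation 6 rose and 4 fell (median 0.055), with the septin gene SPR28 up by 0.84 and the recombinase gene DMC1 down (-0.50). With slide as a block 6 rose and 2 fell, and 2 fell without either zinc array or control replicate 1.

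Nutrient genes changed in several directions. PHO84, the high-affinity phosphate transporter gene, had 10.71 and 10.49 on the zinc arrays and 8.29 and 8.32 on the control arrays, a 4.88-fold increase (log2 change 2.29 ± 0.10, adjusted p = 6.1e-08). PHO89, for the sodium-coupled phosphate transporter, had 9.23 and 9.0 on the zinc arrays and 7.41 and 7.57 on the control arrays and rose by 1.62 ± 0.088 (adjusted p = 2.6e-07). SPL2, which holds low-affinity phosphate uptake down, rose by 1.01, and PHM8 rose by 0.83. PHO90, a low-affinity transporter gene, fell by 0.48, and in the whole phosphate list 10 of 23 members rose and 5 fell, with a median of 0.021. With slide as a block 10 rose and 3 fell, and 3 fell without zinc replicate 2 or control replicate 1.

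Of the 34 genes of sulfate assimilation and methionine synthesis 21 rose and 4 fell (median 0.30). MET3 (ATP sulfurylase) and MET14 (APS kinase), the first enzymes of the pathway, rose by 0.92 ± 0.069 and 1.07 ± 0.070, the sulfate permease gene SUL2 by 1.06 and the methionine permease gene MUP3 by 0.94. SAH1, for S-adenosylhomocysteine hydrolase, fell by 0.74.

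In nitrogen metabolism 13 of 31 catabolite-repressed genes rose and 10 fell (median 0.081). CAR1, for arginase, had 11.65 and 11.67 on the zinc arrays and 9.53 and 9.49 on the control arrays and rose by 2.15 ± 0.063 (adjusted p = 4.0e-09). PUT1 (proline oxidase) and DAL4 (allantoin permease) rose by 1.67 and 1.22, and MEP2, for an ammonium permease, fell by 1.01. Amino acid synthesis fell in 26 of 56 members and rose in 7 (median -0.18), and with slide as a block in 21 and 4. It rose in 3 or 4 members without either zinc array or control replicate 1. LYS9, for saccharopine dehydrogenase of lysine synthesis, had 10.12 and 10.27 on the zinc arrays and 12.29 and 12.45 on the control arrays and fell by 2.18 ± 0.088 (adjusted p = 3.5e-08), and GDH1, ARG8 and TRP4 fell by 1.30, 1.26 and 0.96. BAT1, for the mitochondrial branched-chain aminotransferase, rose by 0.67.

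Glycolytic genes fell in AhPDF1.1b yeast. Of the 21 genes of glycolysis and fermentation 3 rose and 10 fell, with a median of -0.26. ENO2, for enolase, had 12.03 and 12.05 on the zinc arrays and 14.10 and 13.86 on the control arrays, a 3.84-fold decrease (log2 change -1.94 ± 0.093, adjusted p = 1.2e-07). TDH3, for the main glyceraldehyde-3-phosphate dehydrogenase, had 11.9997 and 12.22 on the zinc arrays and 13.52 and 13.40 on the control arrays and fell by 1.35 ± 0.11 (adjusted p = 4.1e-06). Its paralog TDH2 fell by 1.22 and TDH1 did not pass (0.21, adjusted p = 0.25). PGK1, for phosphoglycerate kinase, had 13.72 and 13.60 on the zinc arrays and 14.74 and 14.28 on the control arrays and fell by 0.85 ± 0.13 (adjusted p = 3.3e-04). TPI1, with the signals given at the start, fell by 0.57 ± 0.072 (adjusted p = 1.1e-04), and the aldolase gene FBA1 and the mutase gene GPM1 fell by 0.48 and 0.46. The phosphofructokinase gene PFK2 fell by 0.34, a call lost with slide as a block (adjusted p = 0.070, change within slide 1 -0.21) and without zinc replicate 2 or control replicate 1 (adjusted p = 0.080 and 0.13), and the pyruvate kinase gene CDC19 did not pass (-0.27, adjusted p = 0.21), except without control replicate 1 (-0.53, adjusted p = 0.031). GLK1 (glucokinase) and ADH1 (alcohol dehydrogenase) fell by 0.29 and 0.26. The call of GLK1 was lost with slide as a block (adjusted p = 0.081) and without zinc replicate 2 or control replicate 1 (0.18 and 0.11), and that of ADH1 after quantile normalization (0.15), with trended and robust moderation (0.073) and without control replicate 2 or either zinc array (0.059 to 0.13). In all 8 members did not pass. The pyruvate decarboxylase genes rose, PDC5 by 1.07 ± 0.087, PDC6 by 0.78 and PDC1 by 0.44. The PDC1 call was lost with slide as a block (adjusted p = 0.068, change within slide 1 0.27) and without zinc replicate 1 or control replicate 1 (adjusted p = 0.20 and 0.22). Similar paralogs such as ENO1 and ENO2 may share signal on the array.

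The glucose transporter genes HXT4, HXT1 and HXT3 rose by 1.36, 1.05 and 0.85, and 12 of 24 genes of hexose transport and glucose repression rose and 3 fell (median 0.24), of which 1 fell without zinc replicate 2 or control replicate 2. HXT5 was among those that fell (-0.58), a call lost without either of these arrays (adjusted p = 0.058 and 0.066). Of the gluconeogenic and glyoxylate genes PCK1 fell by 1.81, whereas ICL1, SFC1 and JEN1 rose by 1.68, 1.53 and 1.43. Reserve carbohydrate genes rose in part, 8 of 16 of glycogen metabolism with 1 that fell (median 0.24) and 5 of 7 of trehalose metabolism with none that fell (median 0.38). PGM2 (phosphoglucomutase), GPH1 (glycogen phosphorylase) and TPS2 (trehalose phosphatase) rose by 0.74, 0.44 and 0.67, and PGM1, the minor phosphoglucomutase gene, fell by 0.57. Without zinc replicate 1, 5 genes of glycogen metabolism rose.

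Fatty acid, sterol and hypoxic genes rose in part. OLE1, the fatty acid desaturase gene, had 14.53 and 14.74 on the zinc arrays and 12.95 and 12.97 on the control arrays and rose by 1.67 ± 0.080 (adjusted p = 1.2e-07), and MGA2, whose protein activates it, rose by 0.77. In the list of 26 measured fatty acid and sphingolipid genes 14 rose and 5 fell (median 0.275). ELO1 and TSC10 of this list fell, with log2 changes of -1.03 and -0.63. Of the 26 ergosterol genes 11 rose and 4 fell (median 0.14). ERG3 (C-5 desaturase) and ERG25 (C-4 methyl oxidase), both iron enzymes, rose by 1.39 ± 0.070 and 1.07 ± 0.071, the sterol-sensing activator gene UPC2 by 1.37 and the reductase gene NCP1 by 1.08, and ERG20 fell by 0.60. Of the 16 hypoxic and anaerobic genes 9 rose and none fell (median 0.39), led by the cell wall mannoprotein genes TIR3, TIR1, DAN1 and TIR2 with 1.52, 1.05, 0.90 and 0.79.

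Genes of the secretory pathway moved in both directions. KAR2, the ER chaperone BiP, had 12.85 and 12.86 on the zinc arrays and 12.34 and 12.50 on the control arrays and rose by 0.43 ± 0.073 (adjusted p = 7.9e-04). HRD1, for the ubiquitin ligase of ER-associated degradation, had 8.66 and 8.61 on the zinc arrays and 8.19 and 8.31 on the control arrays and rose by 0.39 ± 0.073 (adjusted p = 0.0015). HAC1, for the transcription factor of the unfolded protein response, had 11.69 and 11.54 on the zinc arrays and 11.68 and 11.39 on the control arrays, which overlap, and did not pass (0.087 ± 0.10, adjusted p = 0.52). The array signal does not tell spliced from unspliced HAC1 messages. Of the 19 ER folding genes, KAR2 included, 2 rose and 7 fell (median -0.15), and the other that rose was HLJ1, for a co-chaperone of the ER membrane (0.27, adjusted p = 0.0080, and 0.062 without zinc replicate 2). EUG1, of the disulfide isomerase family, fell by 1.21, and CWH41 and ROT2, which trim N-glycans, fell by 0.71 and 0.48. Of 16 genes of ER-associated degradation 6 rose and none fell (median 0.046), among them UFD1 and UBC7 by 0.61 and 0.60. Of 35 genes of ER translocation and ER-to-Golgi transport 3 rose and 16 fell (median -0.19), among them SEC66, SEC27 and SEC61 by 0.71, 0.71 and 0.66, and SEC24, for a coat protein of the vesicles that leave the ER, rose by 0.45. Without zinc replicate 1, 1 of them rose and 8 fell, and without control replicate 2, 1 rose and 10 fell.

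Cytosolic chaperone genes rose more widely. Of the 27 heat shock genes 20 rose and 3 fell, with a median of 0.46. BTN2, for a sorting factor of misfolded proteins, had 11.66 and 11.68 on the zinc arrays and 9.91 and 9.74 on the control arrays and rose by 1.85 ± 0.083 (adjusted p = 7.6e-08). The Hsp70 gene SSA4 had 12.68 and 12.58 on the zinc arrays and 10.95 and 10.98 on the control arrays and rose by 1.67 ± 0.067 (adjusted p = 3.4e-08), and HCH1, for an Hsp90 activator, rose by 1.21. SSA3, also of the Hsp70 family, had 9.51 and 9.39 on the zinc arrays and 10.85 and 10.82 on the control arrays and fell by 1.39 ± 0.069 (adjusted p = 1.5e-07). Of the 36 proteasome genes 11 rose and 1 fell (median 0.11), and RPN4, the activator of these genes, rose by 0.80. The gene that fell was PRE3 (-0.43), and without zinc replicate 2, 6 proteasome genes rose. In the proteasome list 33.3% passed, against 45.8% of all genes. The general stress genes had no single direction, with 11 of 29 up and 7 down. ALD3 (aldehyde dehydrogenase) rose by 1.71, and GRE1 and SIP18, both for hydrophilin-like proteins, fell by 1.87 and 1.22.

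The genes that make ribosomes fell, and the ribosomal protein genes less so. Of 106 ribosome biogenesis genes 2 rose (1 without zinc replicate 2) and 60 fell (median -0.29). NSR1 (nucleolin), MAK16 and DBP2 fell by 1.50, 1.14 and 1.01, and RRN3, for an initiation factor of RNA polymerase I, rose by 0.34. Of 134 cytosolic ribosomal protein genes 11 rose and 32 fell (median -0.091), so that the share that fell was close to the 24% of all genes, and with slide as a block these counts were 5 and 23. Without zinc replicate 1, 12 of them fell, without control replicate 1, 5 rose and 17 fell, and without zinc replicate 2, 4 rose. RPS9B, RPL9A and RPS22A fell by 0.87, 0.97 and 0.77, and RPS9A, the paralog of RPS9B, rose by 0.84. Of the 31 translation factor genes 2 rose and 15 fell (median -0.25), among them TIF1 (eIF4A) and SUI1 (eIF1) by 0.67 and 0.73, and 1 rose without zinc replicate 2 or control replicate 2. TIF4632 (eIF4G2) rose by 0.40.

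Genes of the cell cycle moved in both directions. In the list of cyclins and SIC1 8 of 16 fell and 1 rose (median -0.15). Of 32 DNA replication genes 9 fell and 3 rose (median -0.044). In this second list 37.5% passed, against 45.8% of all genes, and the share that fell was close to the 24% of all genes. The mitotic cyclin genes CLB1 and CLB2 fell by 0.95 and 0.81, and RNR1, for ribonucleotide reductase, fell by 0.96. The cyclin gene PCL9 and the helicase gene MCM2 rose by 0.63 and 0.80. Without zinc replicate 2, 5 DNA replication genes fell. ACT1, TUB1 and TUB2, for actin and tubulins, are often used as references. TUB1 fell by 0.28 ± 0.070 (adjusted p = 0.0083, and 0.072 without zinc replicate 2) and TUB2 by 0.68 ± 0.074 (adjusted p = 3.9e-05), and ACT1, with 12.49 and 12.69 on the zinc arrays and 12.96 and 12.77 on the control arrays, had a change of -0.28 ± 0.10 (adjusted p = 0.050, just over the threshold, and 0.035 to 0.048 without any of 6 single arrays).

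Zinc had partly different effects in yeast with and without AhPDF1.1b. The 2 zinc effects share no arrays, and their difference was tested as the interaction in the same fit. Over all 6226 genes the difference was called more positive with AhPDF1.1b for 17.7% and more negative for 16%. The zinc arrays of AhPDF1.1b yeast both lay on slide 1 and those of yeast without it both on slide 2, while each yeast had 1 control array on either slide. With slide as a block the difference was called for 1258 genes, against 2095 without it, and the shares were 9.64% more positive and 10.6% more negative, so that the balance turned. Of the 1987 named genes called for zinc in AhPDF1.1b yeast, 805 also had a called difference and 1182 did not. The named genes called in both yeasts numbered 1539, of which 585 rose in both, 799 fell in both, 59 rose with AhPDF1.1b and fell without it, and 96 fell with AhPDF1.1b and rose without it. The log2 changes of the named genes had an SD of 0.446 with AhPDF1.1b and 0.63 without it, and correlated at r = 0.66 across the 4060 genes, which share the arrays' processing and are not independent replicates. The 12 differences described next were called in both fits.

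**Figure D4:**
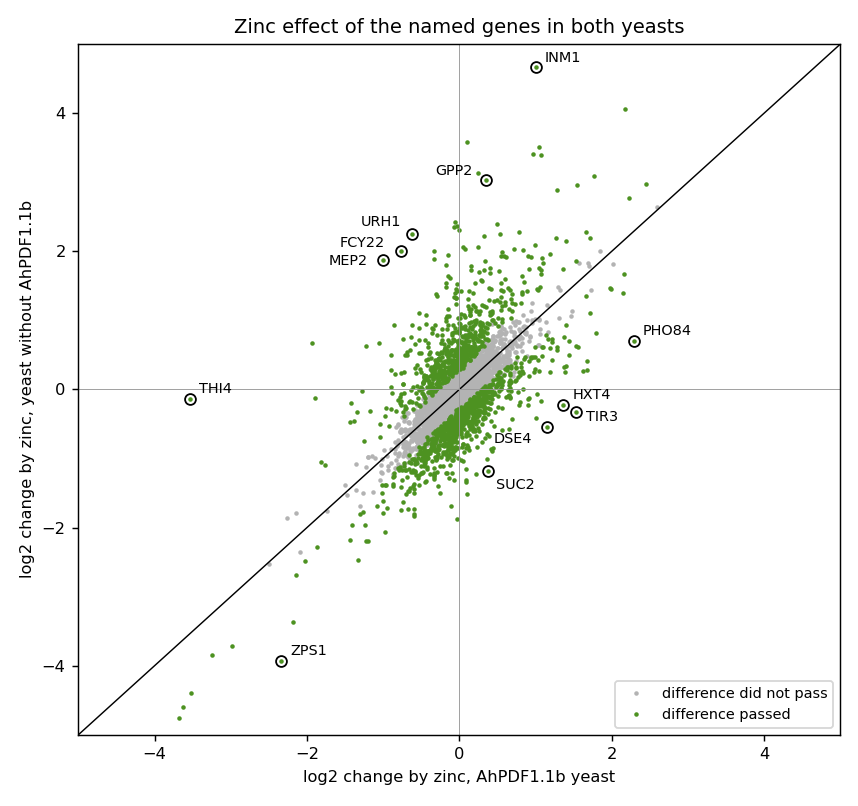
Log2 change by zinc in AhPDF1.1b yeast (horizontal axis) and in yeast without AhPDF1.1b (vertical axis) for the 4060 named genes. Green points had a called difference between the 2 effects, grey points did not, the line marks equal effects, and circles mark the 6 largest differences of each sign among genes that zinc also changed in AhPDF1.1b yeast.

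Among named genes that passed both tests, the most negative differences were those of INM1, THI4, MEP2, URH1, FCY22 and GPP2. INM1, for inositol monophosphatase, had 8.87 and 8.90 on the zinc arrays and 7.87 and 7.90 on the control arrays of AhPDF1.1b yeast, against 12.52 and 12.27 with zinc and 7.71 and 7.75 without zinc in yeast lacking AhPDF1.1b. INM1 thus rose in both yeasts, by 1.00 with AhPDF1.1b and by 4.66 without it, and the difference of its zinc effects was -3.67 (95% interval -3.93 to -3.40, adjusted p = 2.3e-08). THI4 was at 14.39 and 14.45 with zinc and 14.55 and 14.56 without zinc in yeast lacking AhPDF1.1b, so that its log2 change of -3.53 in AhPDF1.1b yeast faced a change of -0.14 there. The difference was -3.40 (95% interval -3.60 to -3.19, adjusted p = 1.4e-08). The zinc arrays of AhPDF1.1b yeast stood alone, and the other 6 arrays lay close together. MEP2 (difference -2.88, adjusted p = 7.2e-08), URH1 for uridine nucleosidase (difference -2.88, adjusted p = 7.2e-08) and FCY22 for a cytosine permease homolog (difference -2.77, adjusted p = 2.5e-07) fell in AhPDF1.1b yeast and changed by 1.88, 2.25 and 2.01 in yeast without it. GPP2, for glycerol-3-phosphate phosphatase, rose by 0.35 in AhPDF1.1b yeast and changed by 3.02 without it (difference -2.68, adjusted p = 5.4e-08).

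The most positive differences among the same genes were those of TIR3, DSE4, ZPS1, HXT4, PHO84 and SUC2. TIR3 had 9.01 and 9.11 on the zinc arrays and 7.51 and 7.56 on the control arrays of AhPDF1.1b yeast, against 7.20 and 7.29 with zinc and 7.65 and 7.49 without zinc in yeast lacking it, a difference of 1.85 (95% interval 1.61 to 2.10, adjusted p = 1.5e-06). DSE4, HXT4 and SUC2 (invertase) likewise rose with AhPDF1.1b and changed by -0.54, -0.22 and -1.17 without it, with differences of 1.69, 1.59 and 1.56 (adjusted p = 3.3e-06, 3.3e-06 and 3.5e-06). PHO84 had 10.04 and 10.31 with zinc and 9.52 and 9.42 without zinc in yeast lacking AhPDF1.1b, where the control level was higher than in AhPDF1.1b yeast. Its difference was 1.58 (95% interval 1.27 to 1.90, adjusted p = 2.2e-05). ZPS1 fell in both yeasts, by 2.34 with AhPDF1.1b and from a higher control level without it (log2 change -3.93), a difference of 1.59 (adjusted p = 1.7e-06).

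**Figure D5:**
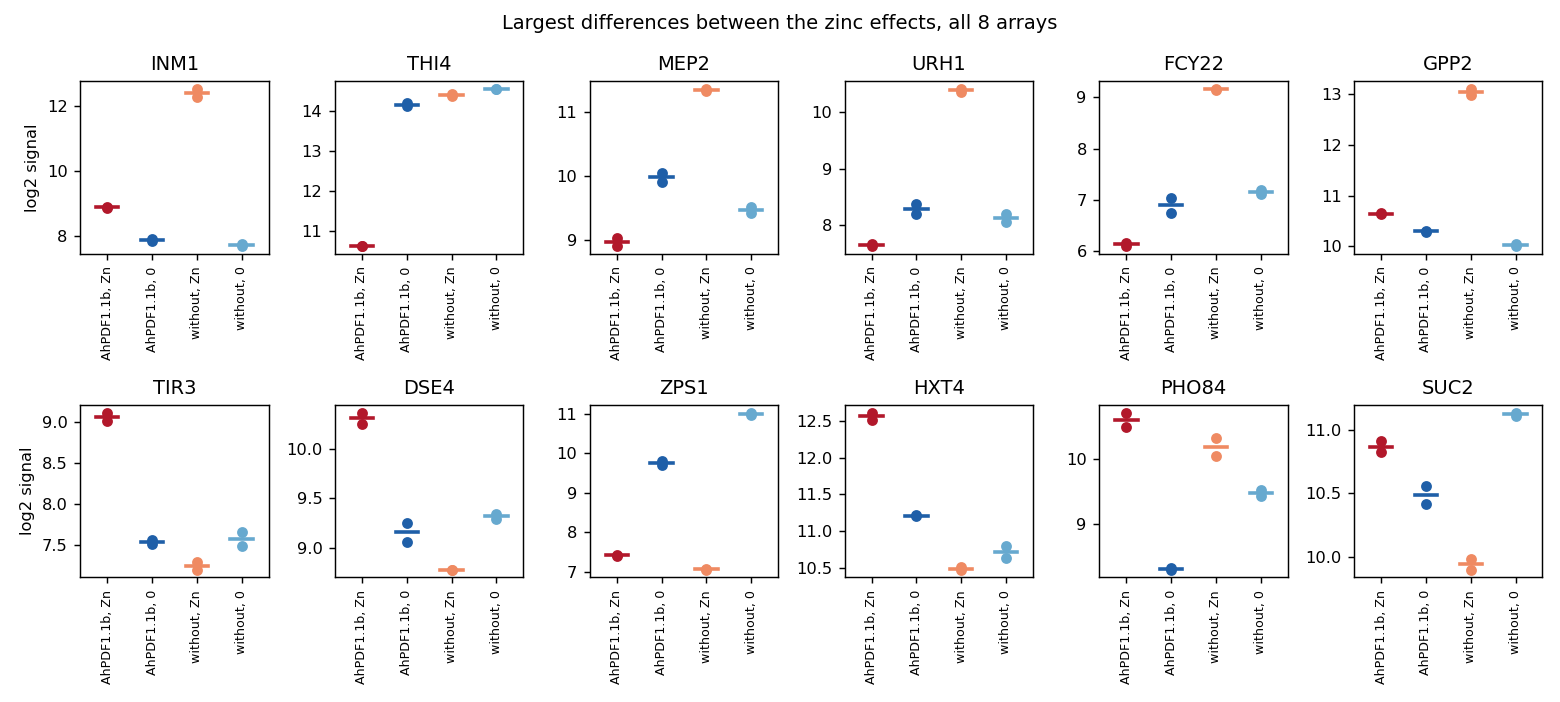
Log2 signals (vertical axes, each panel on its own scale) of the 12 genes described above with the largest differences between the zinc effects, on all 8 arrays. In each panel the columns are AhPDF1.1b yeast with zinc and without it, then yeast without AhPDF1.1b with zinc and without it. Points are arrays and bars are means of 2, and in the THI4 panel only the 2 arrays of AhPDF1.1b yeast with zinc lie low.

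Most glycolytic genes responded differently. Of the 21 genes 14 had a called difference towards lower values with AhPDF1.1b and 2 towards higher ones (median -0.57), with slide as a block 14 and 1. In yeast without AhPDF1.1b 10 of them rose and 3 fell under zinc, where 1732 of all 6226 genes rose and 1963 fell. ENO2 changed by 0.67 there, with signals of 14.61 and 14.62 with zinc and 13.84 and 14.05 without zinc (difference -2.61, 95% interval -2.91 to -2.32, adjusted p = 4.9e-07). ENO1, whose change of -0.18 in AhPDF1.1b yeast did not pass (adjusted p = 0.082, and 0.021 without control replicate 2), changed by 1.80 there (difference -1.98, adjusted p = 8.6e-07). The thiamine list was split, with 9 of 16 differences more negative and 4 more positive, and 7 and 4 with slide as a block. THI5, THI12, THI11 and THI13 fell in both yeasts and less with AhPDF1.1b (differences 1.08, 0.97, 0.87 and 0.60), whereas PHO3, PET18, THI20 and THI21 changed by -0.12, -0.19, 0.27 and 0.71 without AhPDF1.1b (differences -1.77, -1.23, -1.17 and -1.16). MCH5 rose more without AhPDF1.1b (log2 change 4.05, difference -1.88, adjusted p = 4.2e-06), and OLE1 more with it (0.28 without it, difference 1.39, adjusted p = 1.2e-05). Called differences were more often positive than negative in many lists. The TCA cycle and pyruvate dehydrogenase had 11 and 1 of 23 (9 and none with slide as a block). Called differences are given here for 5 other such lists, chosen after the data were seen. They were 18 and 1 of 26 ergosterol genes (16 and 1 with slide as a block), 12 and none of 12 daughter cell separation genes (11 and none), 9 and 1 of 16 hypoxic genes (8 and 1), 81 and 4 of 134 cytosolic ribosomal protein genes (48 and 2) and 15 and none of 36 proteasome genes (5 and none). For the proteasome 8 or 9 called differences were positive without zinc replicate 2 of either yeast or without either control array of yeast without AhPDF1.1b. A positive difference can be a rise with AhPDF1.1b or a weaker fall. In yeast without AhPDF1.1b all 23 TCA cycle and pyruvate dehydrogenase genes fell under zinc. There 15 ergosterol genes fell and 5 rose, 12 daughter cell separation genes fell and none rose, and 6 hypoxic genes fell and 5 rose. Likewise 99 ribosomal protein genes fell and 6 rose, and 14 proteasome genes fell and 3 rose. Of 34 sulfur assimilation genes 4 differences were more positive and 18 more negative (1 and 15 with slide as a block), and 2 were more positive without zinc replicate 2 of AhPDF1.1b yeast or without control replicate 1 of either yeast. The siderophore list had 4 of 7 differences more negative and none more positive (3 and none with slide as a block). In the zinc uptake list 6 of 14 differences were more positive and 4 more negative (6 and 2 with slide as a block), among them ZRT1, which fell by 2.98 with AhPDF1.1b and changed by -3.72 without it (difference 0.73, 95% interval 0.53 to 0.93, adjusted p = 2.0e-04).

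Of the genes of the ER, KAR2 had no called difference (-0.062, 95% interval -0.29 to 0.17, adjusted p = 0.69), with 12.52 and 12.59 with zinc and 12.04 and 12.09 without zinc in yeast lacking AhPDF1.1b. HRD1 had 8.24 and 8.12 with zinc and 8.22 and 8.20 without zinc there, and its difference was 0.42 (95% interval 0.19 to 0.65, adjusted p = 0.010). HAC1 had 12.19 and 12.25 with zinc and 11.42 and 11.56 without zinc there, a rise of 0.73 (adjusted p = 1.0e-04). Its difference was -0.64 (95% interval -0.95 to -0.33, adjusted p = 0.0059), and that of ZRC1 was -0.40 (-0.69 to -0.11, adjusted p = 0.036). With slide as a block the called differences of HRD1, HAC1 and ZRC1 were lost (adjusted p = 0.096, 0.062 and 0.23). That of ZRC1 was also lost when any of 7 single arrays was left out (adjusted p = 0.057 to 0.11).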

How the data were processed

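Transcript levels of 8 S. cerevisiae cultures, 2 biological replicates for each of 4 conditions, were measured on single-colour Agilent arrays with Cy3-labelled cRNA. The authors deposited 1 log2 value per probe and array, processed per the labels with R 2.14.2 and limma. How background was corrected and arrays were normalized is not given in these sources, and neither detection flags nor spot signals were used, so that the number of arrays limits the precision. Of 6227 probes 4061 had 1 gene symbol in the platform annotation (125 were updated through RefSeq) and 2166 had none and were tested but not named. The 2 probes of FDH2 were averaged, which left 6226 genes.

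All 8 arrays were fitted together (limma 3.58.1 in R 4.3.3, lmFit with eBayes moderation; degrees of freedom, 4 residual and 6.364 prior), and p-values were adjusted over all 6226 genes with Benjamini-Hochberg. A gene was called at an adjusted p under 0.05. The 95% intervals come from the same fit. The result was recomputed after quantile normalization or median centring, without the dimmest 25% of genes, with slide or replicate number as a block, with trended and robust moderation, on the 4 arrays alone, with the brighter probe in place of the average and without each array in turn. Replicate numbers did not pair zinc and control arrays alike in both yeasts. Same-numbered zinc and control arrays deviated with r = -0.404 in AhPDF1.1b yeast and r = 0.536 in yeast without it. Pairing by number would give a positive r, as seen in yeast without AhPDF1.1b. Between the yeasts, same-numbered arrays deviated with r = 0.341 (control) and -0.298 (zinc), and control arrays of the same slide with r = -0.341. The fit used for the calls had neither number nor slide as a block, and the cause of these correlations was not tested.

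Genes named were the 12 largest changes in each direction among called genes whose zinc and control arrays did not overlap. Also named were up to 4 members with the smallest p of each list described and at least 1 of each direction. The 6 largest differences of each sign were named, and genes fixed for the study's question (KAR2, HRD1, HAC1, ZRC1, reference and marker genes). Further members of the thiamine, zinc, iron and glycolysis lists completed the rule. STE2, STE6 and ASG7 of the a-cell list and HLJ1 were named outside this rule, after their values were seen. The members and lists were chosen with earlier results of these data known. Genes with near-identical copies may share signal, since probe sequences were not used.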

Additional observations from a re-analysis of the deposited data

Results flagged for a closer look

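Of 212 of the genes named above, 141 had a called difference between the zinc effects with and without AhPDF1.1b. Over all 6226 genes the difference was called for 2095. The named genes were in part chosen for large differences, large changes or small p-values in these same data. Their higher share follows at least in part from that choice and is not a finding about them. For 42 of the 141 genes the difference was at least 1 on the log2 scale. All 42 were also called with slide as a block.

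For 22 of them the zinc effect was more negative with AhPDF1.1b. In glycolysis and fermentation the differences were -2.61 for ENO2, -2.31 for PDC5, -1.98 for ENO1, -1.86 for TDH2, -1.33 for TDH1, -1.22 for PFK2, -1.07 for PGK1 and -1.02 for TDH3. Among the thiamine genes they were -3.40 for THI4, -1.77 for PHO3, -1.23 for PET18, -1.17 for THI20, -1.16 for THI6 and -1.16 for THI21. The transporter genes MEP2, FCY22, HXT1 and MCH5 had differences of -2.88, -2.77, -2.45 and -1.88. INM1, URH1, GPP2 and PHM8 had differences of -3.67, -2.88, -2.68 and -1.19.

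For the other 20 the zinc effect was more positive with AhPDF1.1b. The phosphate genes PHO84, SPL2 and PHO89 had differences of 1.58, 1.43 and 1.36. The lipid genes OLE1, ERG25, ERG3 and ERG20 had differences of 1.39, 1.23, 1.13 and 1.13, and the cell surface genes TIR3, DSE4, ZPS1 and DAN1 of 1.85, 1.69, 1.59 and 1.12. In carbon metabolism HXT4, SUC2, GPH1 and ICL1 had differences of 1.59, 1.56, 1.29 and 1.27. The differences were 1.19 for LYS9, 1.15 for VHT1, 1.13 for MF(ALPHA)1, 1.09 for RPL9A and 1.08 for THI5.

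Outside the named genes, 864 of the 2166 probes without a gene symbol also passed the test for zinc in AhPDF1.1b yeast, of which 476 rose and 388 fell. They were chosen for no comparison and are given as counts.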

How the results depend on the processing

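Zinc changed 2851 of 6226 genes in AhPDF1.1b yeast, and between 2366 (slide as a block) and 2894 (trended and robust moderation) under the other settings. With the replicate number as a block (replicate block) 2739 genes were called for zinc and 1933 for the difference between the yeasts, against 2095 without it. The call of FTR1 was the one lost among the recomputed values of named genes. With slide as a block the difference was called for 1258 genes, 600 more positive and 658 more negative, against 1100 and 995 without it. With the replicate block 9 proteasome genes had a called difference. The differences by gene list were recomputed after seeing the data. The number changed by at least 1 stayed between 210 and 223 when single arrays were left out, while calls ranged from 2196 to 2799 for zinc and from 1584 to 2019 for the difference. A replicate block with the numbers of the zinc arrays of AhPDF1.1b yeast exchanged was chosen after seeing the data. It called 3382 genes for zinc and 2719 for the difference. The values of named genes that were recomputed numbered 262, the zinc change of each of 212 genes and the differences of only part of them. Of the 246 that were called, 227 kept their direction and call under all alternatives and 19 lost the call under at least 1. The sign turned for 4 values that had not passed, each when 1 array was left out. When single arrays were left out, the change of HAC1 ranged from -0.057 (without control replicate 2) to 0.23, the difference of KAR2 from -0.14 to 0.019 (without control replicate 2), the change of URA3 from -0.015 (without control replicate 1) to 0.32 and the change of SAG1 from -0.17 to 0.053 (without zinc replicate 2). The causes were not tested. With 2 arrays per condition and no detection flags, small changes of dim genes could not be judged.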
